A study of Mus musculus with 8 samples.

Results

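Ligand-gated neurotransmitter receptors are membrane channels that open within milliseconds when a transmitter binds them. Here their subunits were the transcript clusters annotated to a single gene symbol beginning with Gabr (GABA-A receptors), Glra (glycine receptors), Chrn (nicotinic acetylcholine receptors), Gria (AMPA glutamate receptors), Grik (kainate glutamate receptors), Grin followed by a digit (NMDA glutamate receptors) or P2rx (P2X receptors for ATP). A transcript cluster is the set of array probes that covers the exons of a gene. The rule found 61 clusters of 58 genes, out of 35557 clusters on the array, of which 23410 carried at least 1 gene symbol and were tested. It used gene names and no measured value. There were 18 GABA-A clusters of 16 genes, 16 nicotinic clusters, 8 P2X clusters of 7 genes, 6 NMDA, 5 kainate, 4 AMPA and 4 glycine clusters.

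The mRNA of whole olfactory mucosa was measured on 1 array per mouse at postnatal day 26, in 4 Lhx2 conditional knockouts and 4 littermate controls of a mixed 129 x C57BL/6J background. The knockouts were OmpCre:Lhx2(fl/fl). Of the controls, 3 were OmpCre:Lhx2(fl/+) and 1, control replicate 1, was Lhx2(fl/+) without Cre. The Omp locus drives Cre in mature olfactory sensory neurons (OSNs), so other cells of the mucosa keep Lhx2, a LIM homeodomain transcription factor, and the study describes recombination as incomplete. In whole mucosa, fewer cells of a type and less RNA per cell cannot be told apart.

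Most of these receptors are assembled from several subunits, and the mix of subunits sets how a channel responds to its ligand. GABA-A and glycine receptors pass chloride, nicotinic and P2X receptors pass cations, and the 3 glutamate families carry most fast excitation in the brain. OSNs themselves release glutamate onto their targets in the olfactory bulb, and ATP and acetylcholine modulate responses in the olfactory epithelium.

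Lhx2 was at 11.99 to 12.17 in knockouts and 12.29 to 12.39 in controls, on a cluster that is not limited to the floxed exons. Lhx2 mRNA fell by 0.25 ± 0.06 on the log2 scale in knockouts (mean difference ± standard error of the limma fit, Benjamini-Hochberg adjusted p = 0.0383), a call that was lost with each array centred on its own median (-0.19, adjusted p = 0.117). Omp mRNA fell by 0.84 ± 0.15 (adjusted p = 0.00568). Cre was inserted into the Omp locus itself, which every mouse but control replicate 1 carried in that form. Omp was at 12.37 to 12.88 in knockouts, 13.78 in control replicate 1 and 13.22 to 13.56 in the other controls. The part of the insertion in the Omp decrease was not tested, and Omp is 1 of the 19 markers that follow. The mean of 19 markers of mature OSNs lay between 11.47 and 11.56 in knockouts and between 12.05 and 12.09 in controls, in deposited log2 units, and 16 of the 19 were called lower. The mean of 11 markers of sustentacular cells, the supporting cells of the epithelium, lay between 11.99 and 12.10 in knockouts and between 12.02 and 12.08 in controls, with 1 of the 11 called. Control replicate 4 stood apart among the controls for the receptor subunits. It held the highest control value of 34 of the 61 clusters (55.7%), against 30.3% of all named clusters, and the mean difference over all 61 was 0.13 without it, against 0.10 with all 8 arrays.

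A cluster was called where the adjusted p over all 23410 clusters was under 0.05. By that rule 1 of the 61 receptor clusters was lower in knockouts (1.64%), against 6.29% of all named clusters and 2.28% of the 22260 clusters outside the odorant and trace amine receptors. In the other direction, 2 of the 61 were higher (3.28%), against 2.10% of all named clusters and 2.21% outside the odorant and trace amine receptors. The lower gene was P2rx4, and the higher genes were Gabra2 and Glra4. No receptor cluster was called without control replicate 1, and 1 was called without control replicate 4, without knockout replicate 1 or without knockout replicate 4. Over all named clusters those fits gave 1609, 1949, 1732 and 1620 calls in that order, against 1965 with all arrays. Mouse numbers in the sample titles begin with 5, 7 or 9, here called title series and treated as a possible batch. Series 7 holds only knockout replicate 3 and control replicate 3, and series 9 only knockout replicate 4 and control replicate 4. A difference within either is between single mice. With the series as a block 1 receptor cluster was lower and 4 were higher, against 1715 lower and 975 higher of all 23410 named clusters. The methods' t-test, run here on the deposited values, called none of the 61 after the same adjustment, against 1704 of all named clusters. The study itself applied t tests with scaling to mature OSN mRNAs and a stricter threshold, which was not repeated here. At an unadjusted p under 0.05, 1 cluster was lower, against a background of 4.63%, and 10 were higher (16.4%), against a background of 9.75%. The 4 knockout arrays lay below all 4 control arrays for P2rx4 alone, against a background of 3.83%. They lay above all 4 controls for Gabra2, Gabra3, Glra4 and Chrnb2, which is 6.56% of the clusters against a background of 6.75%.

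The changes were small in most subunits. The 95% interval of the change lay within 0.5 log2 units of 0 for 52 of the 61 clusters and within 1 log2 unit for all 61, so a missed threshold leaves room for changes of up to that size. The median change over the 61 clusters was 0.10, against 0.05 over all named clusters and 0.05 over those outside the odorant and trace amine receptors. Differences were positive in 48 of the 61 clusters (78.7%), against 69.9% outside the odorant and trace amine receptors. That share moved with the scaling of the arrays. With each array centred on its own median it was 91.8% (84.3% outside those receptors), and after quantile normalization it was 62.3% (61.3% outside). With median centring the median change was 0.16 for the receptor subunits and 0.11 for all named clusters. After quantile normalization these medians were 0.037 and 0.022.

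**Figure D1:**
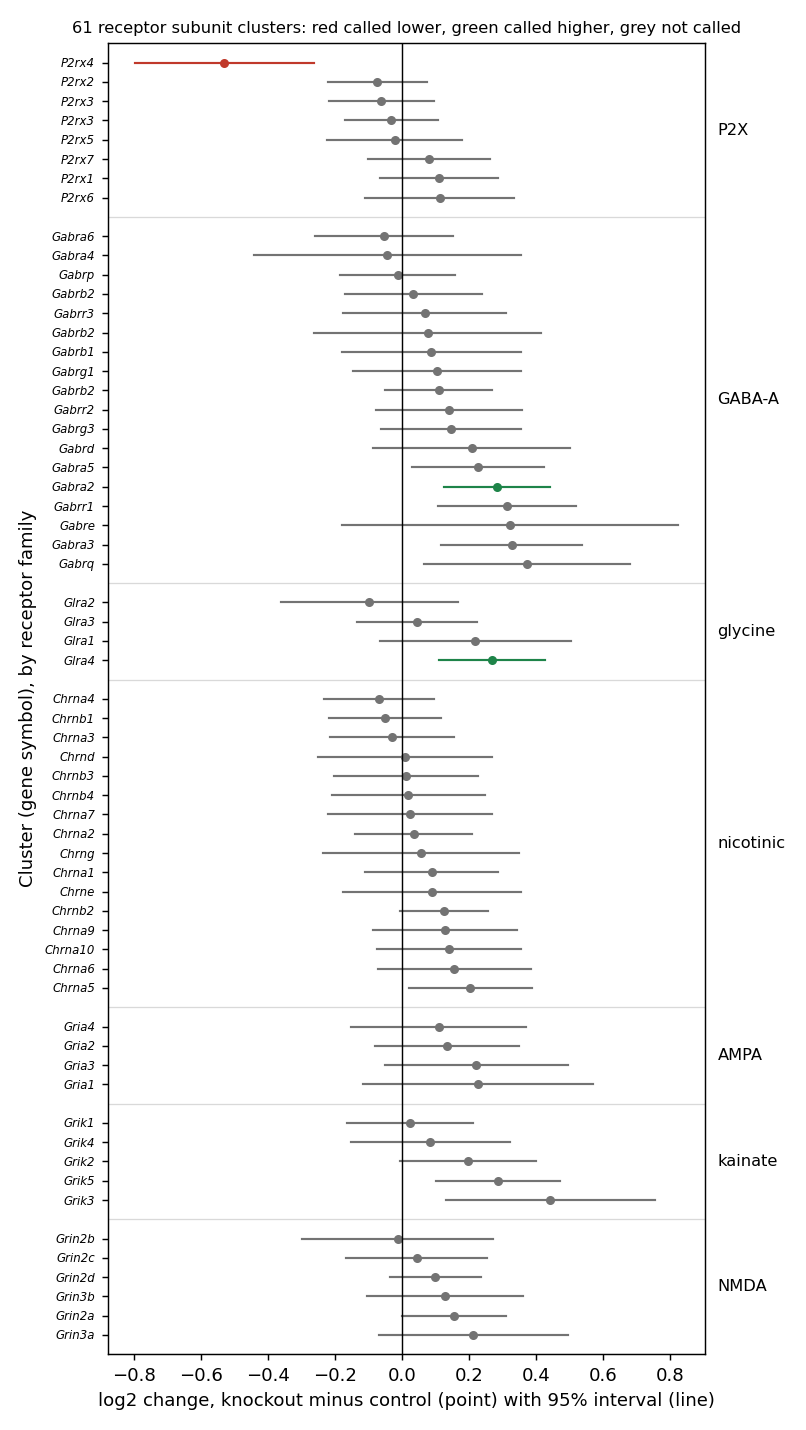
Log2 change, knockout minus control, of each of the 61 receptor subunit clusters (points, with 95% intervals as lines on the x axis), grouped by receptor family down the y axis. P2rx4 (-0.53) is the 1 cluster called lower and stands apart from the rest of its family, while Gabra2 (0.28) and Glra4 (0.27) are called higher among GABA-A, glycine and kainate subunits whose intervals mostly reach 0.

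The proximal promoters of the 3 called genes are shown because Lhx2 is a DNA-binding factor and these are the subunits whose transcripts differed. Each is the 250 bases before the transcription start in RefSeq, from GRCm38.p6, at chr5:122707294-122707543 on the plus strand for P2rx4, chr5:71095850-71096099 on the minus strand for Gabra2 and chrX:136779722-136779971 on the minus strand for Glra4. Capitals mark matches to the homeodomain core TAATNA and to CCCNNGGG, a short form of the Olf/EBF site, each searched on both strands.
P2rx4: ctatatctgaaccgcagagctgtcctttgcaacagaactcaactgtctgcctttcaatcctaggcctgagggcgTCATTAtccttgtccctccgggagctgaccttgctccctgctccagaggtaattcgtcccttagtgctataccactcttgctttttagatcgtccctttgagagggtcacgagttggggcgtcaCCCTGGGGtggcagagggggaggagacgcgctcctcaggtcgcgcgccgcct
Gabra2: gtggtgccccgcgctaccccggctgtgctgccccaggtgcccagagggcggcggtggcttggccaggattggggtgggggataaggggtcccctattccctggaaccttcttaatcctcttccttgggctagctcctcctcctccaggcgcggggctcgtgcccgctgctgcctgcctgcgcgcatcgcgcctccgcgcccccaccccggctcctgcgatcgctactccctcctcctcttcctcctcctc
Glra4: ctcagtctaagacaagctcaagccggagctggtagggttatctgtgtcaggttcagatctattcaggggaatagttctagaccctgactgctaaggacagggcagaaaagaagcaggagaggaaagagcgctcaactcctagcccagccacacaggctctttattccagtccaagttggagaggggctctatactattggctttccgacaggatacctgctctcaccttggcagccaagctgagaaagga
The P2rx4 window held a TAATNA match on the opposite strand that began at -176 from the start, and a CCCNNGGG match that began at -52. No match to either was found in the Gabra2 and Glra4 windows. These are descriptions of the letters and not of binding. TAATNA occurred in 24.3% and CCCNNGGG in 11.8% of 32851 mouse promoter windows of the same length, and both together in 1.68%. Among 49 promoter windows of 43 of the 58 receptor genes, 9 (18.4%) held TAATNA and 6 (12.2%) held CCCNNGGG.

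P2X receptors are cation channels opened by extracellular ATP, and P2rx4 encodes a subunit found widely in epithelia, neurons and immune cells. P2rx4 (cluster 10525439, chromosome 5) had log2 values of 10.52, 10.64, 10.15 and 10.34 in knockout replicates 1 to 4, against 11.07, 11.12, 10.79 and 10.80 in control replicates 1 to 4. All 4 knockouts lay below all 4 controls. P2rx4 mRNA fell by 0.53 ± 0.12 log2 units, a decrease of 30.8% (95% interval -0.80 to -0.26, limma adjusted p = 0.0195). Within title series 5, 7 and 9 the difference was -0.52, -0.63 and -0.45. The call was lost without control replicate 1, the mouse without Cre (-0.49, adjusted p = 0.0669), without control replicate 2 (adjusted p = 0.0609) and without knockout replicate 4 (adjusted p = 0.0653).

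The size of the P2rx4 decrease lay near that of the mature OSN markers, whose median change was -0.49 and mean change -0.54. When each array was set relative to the mean of those 19 markers, the P2rx4 difference was 0.01 (adjusted p = 0.921). That scaling adds the same amount to the change of every cluster. The study reported a smaller mean decrease for its longer list of mature OSN mRNAs in these mice. Its scale would add less to the P2rx4 difference, and was not tried. The part of mature OSN number or RNA content in the decrease was not tested. P2rx4 is also known in macrophages. Of 12 markers of macrophages and T cells none was called lower, against 2.28% outside the odorant and trace amine receptors. The 1 called higher (8.33%, against 2.21%) was Cd3g. The list means were 7.85 to 8.01 in knockouts and 7.77 to 7.92 in controls, and the part of macrophages in the P2rx4 decrease was not tested.

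The neighbouring gene P2rx7, which encodes an ATP receptor best known from macrophages and lies next to P2rx4 with no protein-coding gene between, was at 7.64, 7.73, 7.53 and 7.83 in knockouts and 7.60, 7.73, 7.48 and 7.60 in controls. The groups overlapped, and the difference was 0.08 ± 0.08 (adjusted p = 0.672). P2rx2 and P2rx3 encode the subunits typical of sensory neurons. P2rx2 was at 8.29, 8.10, 8.14 and 8.11 in knockouts and 8.24, 8.23, 8.31 and 8.15 in controls, a difference of -0.07 ± 0.07 (adjusted p = 0.627). P2rx3 had a pair of clusters, with differences of -0.06 and -0.03. The remaining P2X genes, P2rx1, P2rx5 and P2rx6, differed by between -0.02 and 0.11. The 7 P2X clusters other than P2rx4 had differences of -0.07 to 0.11, and none of them was called at an adjusted or an unadjusted p under 0.05.

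GABA-A receptors are chloride channels, usually built from alpha and beta subunits with a gamma, delta or other partner. Gabra2 encodes an alpha subunit of many synaptic receptors of the brain. Gabra2 (cluster 10530406, chromosome 5) was at 5.79, 5.85, 5.71 and 5.65 in knockouts and at 5.53, 5.41, 5.56 and 5.37 in controls. The lowest knockout lay above the highest control by less than the spread within either group. Gabra2 mRNA rose by 0.28 ± 0.07 log2 units, or 21.8% (95% interval 0.13 to 0.44, adjusted p = 0.0337), with differences of 0.36, 0.15 and 0.27 in title series 5, 7 and 9. This call held without control replicate 3 or without knockout replicate 4, and was lost on leaving out any other mouse, with changes of 0.25 to 0.32 over the 8 leave-outs. After quantile normalization the change was 0.20 (adjusted p = 0.309). All 8 values lay below the lower quartile of every array, which was 6.88 to 7.04.

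Gabra3, the alpha subunit gene of chromosome X, was at 8.11, 8.29, 8.26 and 8.35 in knockouts and 7.95, 8.10, 7.68 and 7.97 in controls. The groups were barely separate, and the difference of 0.33 ± 0.09 missed the threshold (adjusted p = 0.0690). It passed without control replicate 2, with median centring and with array weights (adjusted p = 0.0309), and was 0.18, 0.58 and 0.38 in title series 5, 7 and 9. Gabra3 lies beside Gabrq, which encodes the theta subunit, and with a single protein-coding gene between it lies beside Gabre, which encodes epsilon. Gabrq was at 7.61, 7.01, 7.68 and 7.34 in knockouts and 6.91, 7.03, 7.17 and 7.03 in controls. Knockout replicate 2 lay among the controls and the other 3 knockouts above them, and the difference was 0.37 ± 0.14 (adjusted p = 0.167), or 0.51 without knockout replicate 2 (adjusted p = 0.0134). Gabre was at 7.70, 7.94, 8.72 and 8.44 in knockouts and 7.63, 7.61, 8.25 and 8.02 in controls, so its values overlapped widely. Its difference was 0.32 ± 0.22 (adjusted p = 0.518), with 0.20, 0.47 and 0.42 in title series 5, 7 and 9, and it was called when the series entered the fit as a block (adjusted p = 0.0339). It was 0.15 without knockout replicate 3 and 0.49 without knockout replicate 1.

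The rho subunits make GABA-gated channels best known from the retina. Gabrr1 was at 8.38, 8.17, 8.35 and 8.37 in knockouts and 7.90, 7.86, 8.24 and 8.02 in controls. Knockout replicate 2 was below control replicate 3, and the difference was 0.31 ± 0.09 (adjusted p = 0.0752), which passed the threshold with median centring (adjusted p = 0.0478), quantile normalization (adjusted p = 0.0281), title series as a block (adjusted p = 0.0302), array weights (adjusted p = 0.0158) and on leaving out control replicate 3. Its neighbour Gabrr2 differed by 0.14 and Gabrr3, on another chromosome, by 0.07, and neither was called.

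On chromosome 5, Gabra2 stands next to Gabrg1 and close to Gabra4 and Gabrb1. The differences across this cluster of genes were 0.10 for Gabrg1, 0.28 for Gabra2, -0.04 for Gabra4 and 0.09 for Gabrb1, so only Gabra2 was called there. Gabrp encodes the pi subunit of secretory and other epithelia. It was at 11.74, 11.47, 11.41 and 11.60 in knockouts and 11.56, 11.58, 11.55 and 11.59 in controls, a difference of -0.01 ± 0.08 (adjusted p = 0.955, 95% interval -0.19 to 0.16). The knockouts spread around the tight controls. Gabra5 (0.23), Gabrd (0.21), Gabrg3 (0.15), Gabra6 (-0.05) and the 3 clusters of Gabrb2 (0.03, 0.08 and 0.11) were not called, and of these Gabra5 was the 1 with an unadjusted p under 0.05.

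**Figure D2:**
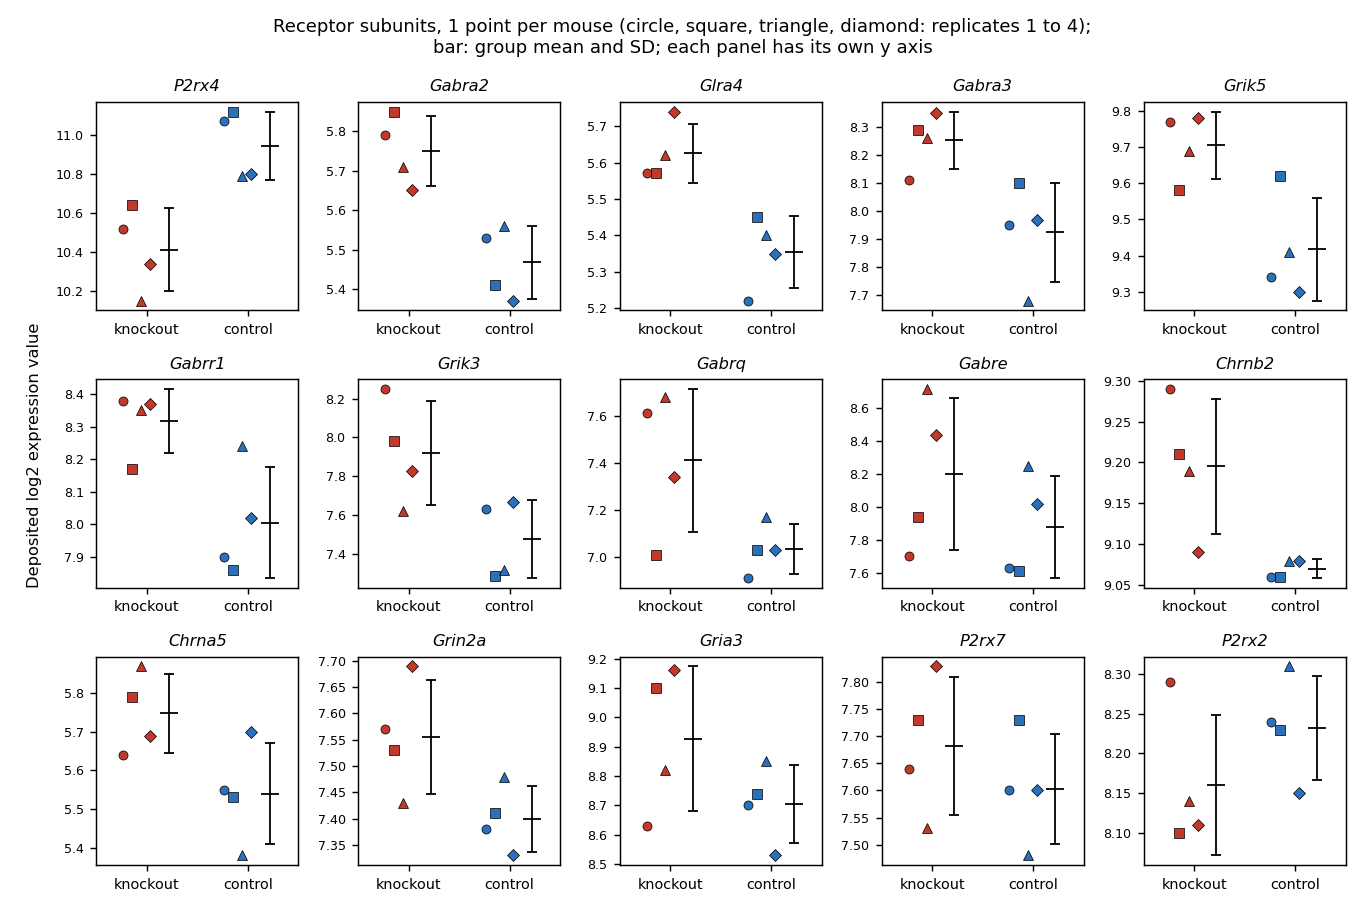
Deposited log2 expression values (y axis, its own range in each panel) of 15 receptor subunit clusters in 4 knockout and 4 control mice (x axis), with the mean and SD of each group beside the points. P2rx4 lies below the controls in all 4 knockouts, Gabra2, Glra4, Gabra3 and Chrnb2 lie above, and the other panels overlap.

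Glycine receptors combine alpha subunits with the beta subunit and serve inhibition mainly in spinal cord and brainstem. Glra4 (cluster 10606880, chromosome X), an alpha subunit gene, was at 5.57, 5.57, 5.62 and 5.74 in knockouts and 5.22, 5.45, 5.40 and 5.35 in controls. The groups were separate, and all 8 values lay below the lower quartile of every array, which was 6.88 to 7.04. Glra4 mRNA rose by 0.27 ± 0.07 log2 units, or 20.5% (95% interval 0.11 to 0.43, adjusted p = 0.0471), with 0.23, 0.22 and 0.39 in title series 5, 7 and 9. The call held only without control replicate 2 and was lost on leaving out any of the other 7 mice, with changes of 0.22 to 0.30 over the 8 leave-outs, and after quantile normalization the change was 0.19 (adjusted p = 0.183). Glra1, Glra2 and Glra3 differed by 0.22, -0.10 and 0.04, and their mean values over the 8 arrays were also low. The beta subunit gene Glrb, which the naming rule did not take, was at 8.12, 8.10, 7.86 and 7.87 in knockouts and 7.74, 7.75, 7.68 and 7.81 in controls, a difference of 0.24 ± 0.08 (adjusted p = 0.108) that was called with median centring (adjusted p = 0.0328) and array weights (adjusted p = 0.0377). The knockouts were above all 4 controls.

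Kainate receptors are glutamate channels in which Grik1 to Grik3 encode subunits that can form channels alone and Grik4 and Grik5 encode subunits that need such a partner. Their 5 clusters all had positive differences (4 of 5 after quantile normalization), with a median of 0.20, and the mean over the 5 was 7.31 ± 0.05 in knockouts and 7.10 ± 0.05 in controls (SD, n = 4 each). The ranges of that mean, 7.25 to 7.36 in knockouts and 7.06 to 7.17 in controls, did not overlap. Those of the mean over all clusters outside the odorant and trace amine receptors did not overlap either (8.47 to 8.50 against 8.42 to 8.45). None of the 5 was called by limma, and 2 had an unadjusted p under 0.05. Grik3 was at 8.25, 7.98, 7.62 and 7.83 in knockouts and 7.63, 7.29, 7.32 and 7.67 in controls. Knockout replicate 3 lay among the controls, and the difference was 0.44 ± 0.14 (adjusted p = 0.0973), with 0.65, 0.31 and 0.16 in title series 5, 7 and 9. It passed the threshold without knockout replicate 3. Grik5 was at 9.77, 9.58, 9.69 and 9.78 in knockouts and 9.34, 9.62, 9.41 and 9.30 in controls. Control replicate 2 lay above knockout replicate 2, and the difference of 0.29 ± 0.08 (adjusted p = 0.0706) passed the threshold with median centring (0.34, adjusted p = 0.0226), with quantile normalization (0.28, adjusted p = 0.0484), with array weights (adjusted p = 0.0384) and on leaving out control replicate 2. Grik2 differed by 0.20, Grik4 by 0.08 and Grik1 by 0.02.

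AMPA receptors carry fast glutamate transmission. All 4 AMPA clusters had positive differences and none was called, at an adjusted or an unadjusted p under 0.05. The smallest p was that of Gria3, at 8.63, 9.10, 8.82 and 9.16 in knockouts and 8.70, 8.74, 8.85 and 8.53 in controls. The groups overlapped, the difference was 0.22 ± 0.12 (adjusted p = 0.396), and within title series 5, 7 and 9 it was 0.14, -0.04 and 0.64. It was also 0.14 without knockout replicate 4. Gria1, Gria2 and Gria4 differed by 0.23, 0.13 and 0.11. The family mean was 6.85 ± 0.17 in knockouts and 6.67 ± 0.06 in controls (SD, n = 4 each), with the knockouts the more spread of the groups, and the difference of 0.17 was 0.10 without knockout replicate 4.

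NMDA receptors pass calcium and need glutamate together with a co-agonist. None of the 6 clusters was called, and 1 of them had an unadjusted p under 0.05. This was Grin2a, at 7.57, 7.53, 7.43 and 7.69 in knockouts and 7.38, 7.41, 7.48 and 7.33 in controls, a difference of 0.16 ± 0.07 (adjusted p = 0.272) with knockout replicate 3 among the controls. Grin3a (0.21) and Grin3b (0.13), which encode glycine-binding subunits, and Grin2b (-0.01), Grin2c (0.04) and Grin2d (0.10), which encode glutamate-binding subunits, spread around small differences.

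Nicotinic receptors are acetylcholine-gated cation channels of nerve and muscle. None of the 16 nicotinic clusters was called by limma, 1 had an unadjusted p under 0.05, and the 95% intervals of all 16 lay within 0.5 log2 units of 0. Chrnb2, the commonest beta subunit of neuronal receptors, was at 9.29, 9.21, 9.19 and 9.09 in knockouts and 9.06, 9.06, 9.08 and 9.08 in controls. The groups did not overlap, and the difference was 0.13 ± 0.06 (adjusted p = 0.308). Chrna5, an accessory alpha subunit, was at 5.64, 5.79, 5.87 and 5.69 in knockouts and 5.55, 5.53, 5.38 and 5.70 in controls. Control replicate 4 was among the knockouts, and the difference was 0.20 ± 0.08 (adjusted p = 0.214), or 0.26 without that control. Its neighbours Chrna3 and Chrnb4, the main subunits of autonomic ganglia, differed by -0.03 and 0.02. Chrna7, which forms channels alone, differed by 0.02 and Chrna4, the usual partner of Chrnb2, by -0.07. Chrna2 (0.04), Chrna6 (0.16) and Chrnb3 (0.01), and Chrna9 (0.13) and Chrna10 (0.14), which form the receptor of cochlear hair cells, were likewise not called.

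The muscle-type subunits Chrna1, Chrnb1, Chrnd, Chrne and Chrng differed by between -0.05 and 0.09. Their mean was 6.74 to 6.86 in knockouts and 6.63 to 6.69 in control replicates 1 to 3, with 7.07 in control replicate 4. Control replicate 4 held the highest control value in all 5, and in 13 of the 16 nicotinic clusters. Of 15 skeletal muscle markers none was called, their mean was 6.91 to 7.02 in knockouts and 6.78 to 7.03 in controls, and control replicate 4 was the highest control in 11 of the 15. Whether attached muscle had a part in the nicotinic values was not tested. Without control replicate 4 the mean nicotinic difference was 0.12, against 0.06 with all 8 arrays, and it was 0.04 without control replicate 2 and 0.03 without control replicate 3.

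The remaining families were compared by the mean over their clusters in each mouse (SD, n = 4 each). The GABA-A mean was 6.97 ± 0.09 in knockouts and 6.82 ± 0.06 in controls, and the NMDA mean was 7.21 ± 0.05 in knockouts and 7.11 ± 0.06 in controls. The nicotinic mean was 6.90 ± 0.04 in knockouts and 6.84 ± 0.12 in controls, and the glycine mean was 5.13 ± 0.10 in knockouts and 5.02 ± 0.12 in controls. The P2X mean was 7.60 ± 0.04 in knockouts and 7.65 ± 0.05 in controls. Of the 7 families, kainate was the 1 whose means did not overlap between the groups when all 8 arrays were used. Separate means were not particular to kainate subunits. The 22260 clusters outside the odorant and trace amine receptors averaged 8.47 to 8.50 in knockouts and 8.42 to 8.45 in controls. Their mean difference was 0.05, against 0.21 for kainate. Without control replicate 4, the GABA-A, NMDA and nicotinic means also did not overlap, and the differences were then 0.18 for GABA-A, 0.13 for NMDA, 0.23 for kainate and 0.17 for glycine subunits, against 0.15, 0.10, 0.21 and 0.11 with all arrays. That mouse was the highest control of these families, so leaving it out favours separate groups and no conclusion is drawn. Without knockout replicate 2 the lowest knockout also lay above the highest control for GABA-A (6.92 against 6.91) and NMDA (7.21 against 7.20). Within title series 5, 7 and 9 the kainate difference was 0.24, 0.19 and 0.16, while the nicotinic difference was 0.09, 0.16 and -0.11. The P2X difference, -0.05 with all arrays, was 0.01 with median centring and -0.03 without control replicate 2 or without knockout replicate 3.

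**Figure D3:**
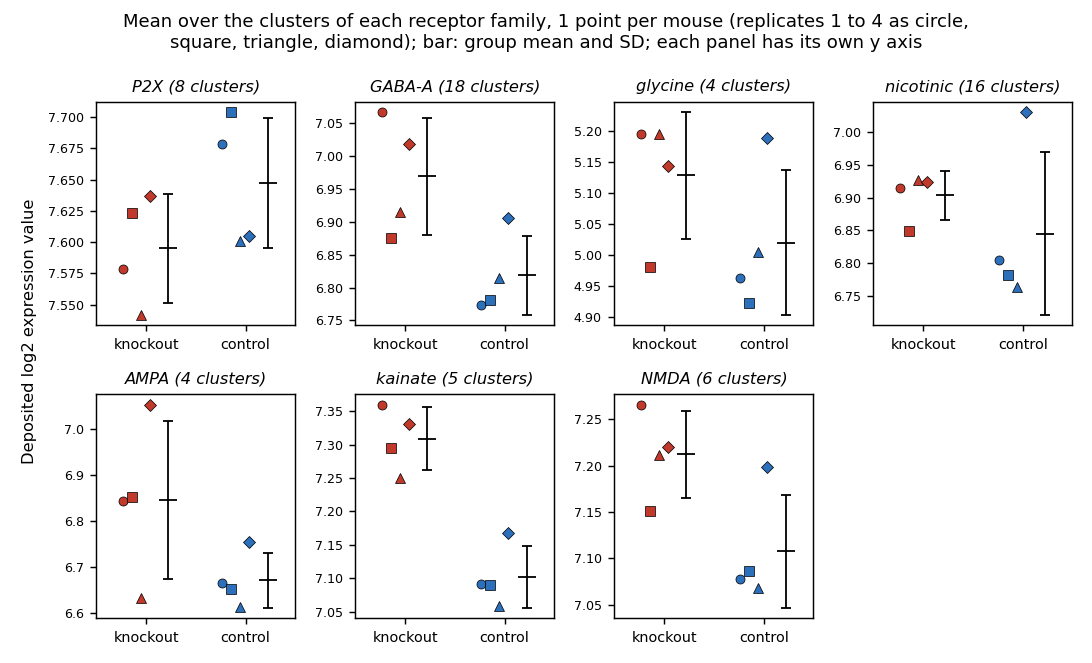
Mean deposited log2 value (y axis, its own range in each panel) over the clusters of each receptor family, 1 point per mouse for 4 knockouts and 4 controls (x axis), with group mean and SD. The kainate means are separate with all 8 arrays (7.25 to 7.36 in knockouts, 7.06 to 7.17 in controls), and control replicate 4 (diamond) is the highest control for 6 of the 7 families, all but P2X. The mean over all clusters outside the odorant and trace amine receptors, not drawn, is separate too.

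Genes that act with these receptors were taken from 5 lists of 111 genes in all, covering other ligand-gated subunits, metabotropic receptors of the same transmitters, auxiliary subunits and chaperones, scaffolds and anchors, and transmitter synthesis, release and uptake. Of the 111, 6 were lower and 6 higher in knockouts, and the median change was 0.07, against backgrounds of 2.28% lower and 2.21% higher outside the odorant and trace amine receptors. These calls lay in 3 of the lists.

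In the list for transmitter synthesis, release and uptake, 2 of 26 genes were higher and 2 lower. Slc17a9 encodes the transporter that loads ATP into vesicles, the source of the ligand of the P2X receptors. It was at 8.71, 8.54, 8.50 and 8.38 in knockouts, against 7.04, 7.40, 7.17 and 7.30 in controls, with a wide gap between the groups. Slc17a9 mRNA rose by 1.30 ± 0.10 log2 units, or 2.47-fold (adjusted p = 1.13e-05), and its call held in all 8 leave-outs and with every scaling tried. The vesicular glutamate transporters moved in opposite directions. Slc17a6 (VGLUT2), the main form of OSNs, was at 11.37, 11.31, 11.46 and 11.32 in knockouts and 11.76, 11.73, 11.81 and 11.92 in controls, and fell by 0.44 ± 0.06 (adjusted p = 0.00132). Slc17a7 (VGLUT1) was at 7.65, 7.36, 7.43 and 7.69 in knockouts and 7.06, 7.36, 6.91 and 7.11 in controls, meeting at 7.36, and rose by 0.43 ± 0.11 (adjusted p = 0.0388). The Slc17a7 call was lost in 8 of 16 settings, quantile normalization among them (0.39, adjusted p = 0.106). The Slc17a6 call held in all but the mature OSN scale. Slc17a7 is also in the list of 13 olfactory bulb neuron markers, where 1 gene was called higher and 1 lower, and the list means were 7.77 to 7.80 in knockouts and 7.68 to 7.86 in controls. Slc1a2, which clears glutamate from the extracellular space, was at 10.49, 10.38, 10.65 and 10.41 in knockouts and 10.94, 10.93, 10.88 and 11.15 in controls, without overlap, and fell by 0.49 ± 0.08 (adjusted p = 0.00339).

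Of 32 genes for auxiliary subunits and chaperones, 4 were higher and 2 lower. Nptx1 encodes a secreted pentraxin that gathers AMPA receptors at synapses. It was at 8.47, 8.26, 8.07 and 8.43 in knockouts and 7.12, 7.22, 7.16 and 7.32 in controls, again with a gap, and rose by 1.10 ± 0.09 log2 units, or 2.15-fold (adjusted p = 2.99e-05). Neto2, which encodes an auxiliary subunit of kainate receptors, was at 11.03, 10.90, 10.51 and 10.98 in knockouts and 10.31, 10.22, 10.48 and 10.41 in controls. Knockout replicate 3 lay just above the highest control, and the rise was 0.50 ± 0.11 (adjusted p = 0.0213), with 0.70, 0.03 and 0.57 in title series 5, 7 and 9. Olfm1, which encodes a secreted protein found with AMPA receptors, was at 11.67, 11.67, 11.58 and 11.69 in knockouts and 12.16, 12.19, 12.10 and 12.16 in controls, and fell by 0.50 ± 0.06 (adjusted p = 0.000186). Lhfpl4, whose product holds GABA-A receptors at inhibitory synapses, was at 10.02, 9.96, 10.05 and 9.98 in knockouts and 10.32, 10.27, 10.23 and 10.31 in controls, and fell by 0.28 ± 0.05 (adjusted p = 0.00821). Both groups were tight for these last genes and did not overlap. Ly6h (0.25) and Cacng5 (0.29) were the other higher genes.

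Of 28 scaffold and anchor genes, 2 were lower and none higher. Homer2, whose product ties metabotropic glutamate receptors to their scaffold, was at 11.84, 11.82, 11.66 and 11.75 in knockouts and 12.18, 12.12, 12.22 and 12.22 in controls, and fell by 0.42 ± 0.06 (adjusted p = 0.00148). Plcl1, whose product takes part in GABA-A receptor trafficking, was at 7.77, 8.11, 7.83 and 7.97 in knockouts and 8.58, 8.50, 8.29 and 8.15 in controls, and fell by 0.46 ± 0.11 (adjusted p = 0.0251). The highest knockout, replicate 2, came close to the lowest control, replicate 4. None of the 21 metabotropic receptors was called, although 4 had an unadjusted p under 0.05, of which 1 was lower and 3 were higher. Gabbr1, a GABA-B receptor subunit gene, was at 11.34, 11.26, 11.12 and 11.25 in knockouts and 11.47, 11.57, 11.37 and 11.47 in controls, a difference of -0.23 ± 0.07 (adjusted p = 0.0860) without overlap. Gabbr1 was called lower with title series as a block (adjusted p = 0.0234), quantile normalization (adjusted p = 0.0445), array weights (adjusted p = 0.0348) and an intensity trend (adjusted p = 0.0395). Of the 4 other ligand-gated subunits, Glrb included, none was called and 1 had an unadjusted p under 0.05.

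**Figure D4:**
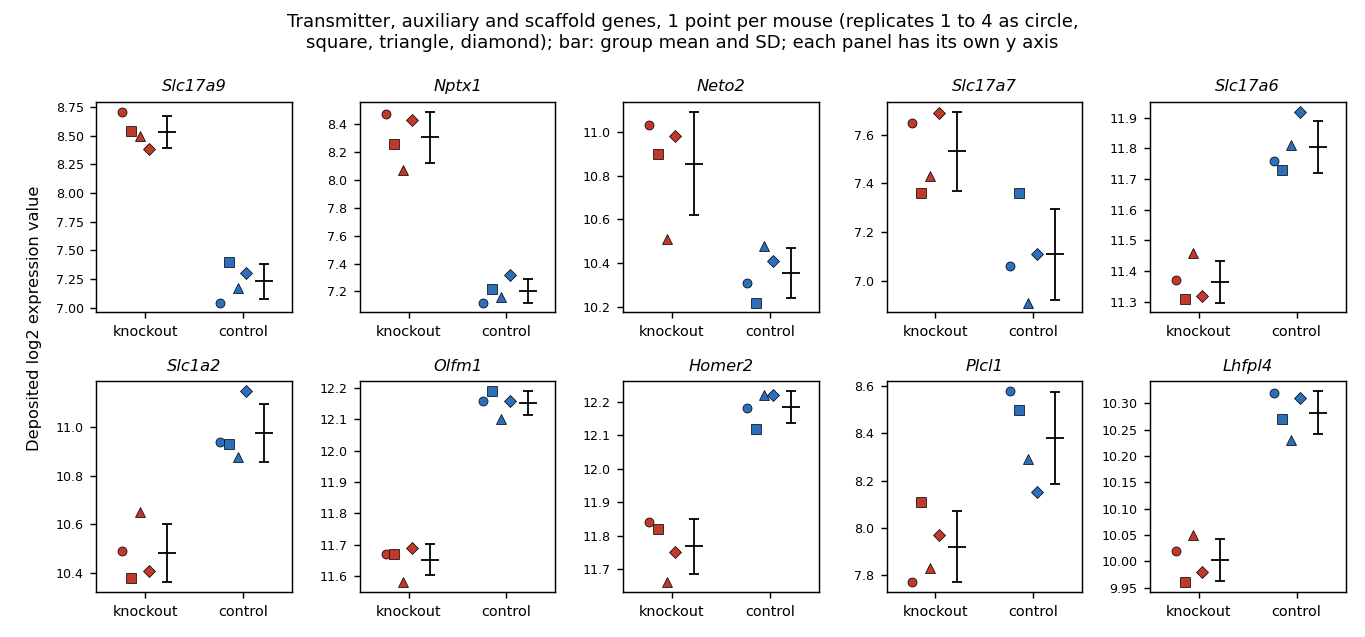
Deposited log2 expression values (y axis, its own range in each panel) of 10 called genes that act with the receptors, in 4 knockout and 4 control mice (x axis), with group mean and SD. Slc17a9 (2.47-fold) and Nptx1 (2.15-fold) show the widest gaps between the groups, Slc17a7 meets at 7.36, and the 6 lower genes lie below the controls in all 4 knockouts.

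Setting values relative to the 19 mature OSN markers subtracts 1 value from all clusters of an array. It therefore adds the same amount to every change, of the size of the markers' own mean change (-0.54). Signs and counts of calls on that scale follow largely from this shift and are no separate evidence on any gene. On it, 60 of the 61 subunit clusters were called higher and none lower, and P2rx4 was the exception. Of all named clusters, 826 were then lower and 21706 higher. The median change of all named clusters was then 0.59 and that of the 61 subunits 0.64. The called pathway genes that were lower as deposited had each fallen by less than the 19 markers did on average. On that scale they were therefore no longer lower, with Olfm1 at 0.04, Slc1a2 at 0.05, Plcl1 at 0.08, Slc17a6 at 0.10, Homer2 at 0.13 and Lhfpl4 at 0.26. The study's longer list had a smaller reported decrease, so scaling to it would add less to each change. The loss of these decreases on the scale of the 19 markers need not hold on the study's scale.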

How the data were processed

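Total RNA of olfactory mucosa from 8 mice was hybridized to Affymetrix Mouse Gene 1.0 ST arrays, 1 per mouse. The authors deposited log2 values, 1 for each transcript cluster, from Affymetrix Expression Console. The version of that program, its background correction and its summarization are not given in the sources used. The study also rescaled its data to a long list of mRNAs of mature OSNs, not used here, and a list of 19 such markers served as an alternative scale. The 19 fell further in knockouts than the study reported for its list on average, so the 2 scales differ in size. Groups came from the phenotype given for each mouse. Replicates were numbered in accession order and pair nothing.

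Clusters were named by the annotation of the platform, brought up to date by Entrez ID (21698 of 21789 clusters with 1 symbol matched) with RefSeq symbols of GRCm38.p6. Chromosomes, gene order and promoter sequences are from the same assembly. The knockout and control groups were fitted with limma 3.58.1 under R 4.3.3 (lmFit, eBayes, no covariate), with Benjamini-Hochberg adjustment over 23410 clusters. Each ± after a log2 change is the standard error of that fit. All receptor clusters are accounted for. Given per mouse were the called subunits, those called under a setting other than the mature OSN scale, the member with the smallest p of each family without a call, and up to 4 called genes with the smallest p of each pathway list, or the gene with the smallest p where none was called. Values of Chrnb2, P2rx7, P2rx2 and Gabrp, and the names Ly6h and Cacng5, were added after their values were seen. The subunits, lists and tests were chosen with earlier results of these data known. The 12 lists of cell markers covered mature OSNs, immature OSNs (2 of 14 called lower, 1 higher), basal cells (0 of 12), sustentacular cells, microvillous cells (0 of 11), ensheathing and Schwann cells (0 of 10), skeletal muscle, autonomic neurons (0 of 9), bulb neurons, macrophages with T cells, vessels (0 of 10) and glands with respiratory epithelium (1 of 12 called lower).

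Alternatives were array median centring, quantile normalization, values relative to the mature OSN markers, title series as a block, array weights, an intensity trend, the methods' t-test, clusters with a mean log2 value above 5, and leaving out each mouse. Tested on simulated data built from the 8 arrays over 23410 clusters, the fit of 4 knockout against 4 control arrays called 44 of 67 clusters given a log2 change of 0.5, 63 of 67 given 1 and 66 of 66 given 2, with 7 calls among 23210 given none. The simulated noise was independent between clusters, so these rates need not hold for the real arrays. The smallest change given was 0.5, larger than those of Gabra2 and Glra4. Arrays give no counts, so their number, 4 per group, limits the precision, and p-values measure the spread between mice. Figures were drawn with matplotlib 3.10.9.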

Additional observations from a re-analysis of the deposited data

Results flagged for a closer look

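With 4 mice per group, a mouse was singled out where its gap to the nearest other mouse took up more of the range of its group than Dixon's critical value at 95% allows. Chance alone does this in about 1 in 20 groups, and 64 groups were examined, of which 4 met it. Knockout replicate 2 had a Gabrr1 value of 8.17, against 8.35 to 8.38 in the other knockouts. Control replicate 4 was singled out in the other 3, which share clusters. Its mean over all 61 receptor subunits was 6.96, its nicotinic mean 7.03 and its NMDA mean 7.20, each the highest of the controls.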

How the results depend on the processing

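Setting values relative to the mature OSN markers added the same amount to every change and so moved most results. All named clusters called were then 22532, against 1965 as deposited, receptor subunits called 60, against 3, and pathway genes called 105, against 12. The family differences were then 0.64 over all subunits, 0.72 for AMPA, 0.69 for GABA-A, 0.65 for NMDA, 0.49 for P2X, 0.65 for glycine, 0.75 for kainate and 0.60 for nicotinic subunits. On that scale P2rx4 (0.011), Gabbr1 (0.31), Olfm1 (0.042), Lhfpl4 (0.26), Homer2 (0.13), Plcl1 (0.082), Slc17a6 (0.10) and Slc1a2 (0.049) were no longer below 0.

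Receptor subunits called were 6 with median centring, 5 with title series as a block, 6 with array weights, 1 with an intensity trend and 0 by the methods' t-test, and pathway genes called were 19 with median centring and 23 with array weights. Over all 23410 named clusters the calls were 2370 with median centring, 2690 with the block and 2814 with array weights. They were 2080 with the trend and 1704 by the t-test, against 1965 as deposited. Median centring moved the NMDA difference to 0.16, P2X to 0.0057 and kainate to 0.26, and quantile normalization moved kainate to 0.16. Within title series 7 the AMPA difference was 0.019 and the nicotinic one 0.16. Within series 9, which sets knockout replicate 4 against control replicate 4 alone, the differences were 0.022 for NMDA, 0.032 for P2X, -0.045 for glycine and -0.11 for nicotinic subunits. The causes were not tested.

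Leaving out each mouse gave 1609 to 1949 calls over all named clusters, 0 to 3 receptor subunits, 7 to 14 pathway genes, and 60 subunits each time on the mature OSN scale. The P2rx4 call was also lost in the methods' t-test (adjusted p = 0.0900), the Gabra2 call with the trend (0.0557) and t-test (0.0558), and the Glra4 call with the trend (0.0724) and t-test (0.0707). Adjusted p for P2rx4 over the other settings ran up to 0.921. Calls of Neto2, Plcl1 and Slc17a7 were lost in 6, 7 and 8 of 16 settings. The labels give no replicate numbers that could pair mice, so title series, each with both genotypes, was the only block fitted.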
